A study of Mus musculus with 12 samples.

Results

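The NuRD subunit genes examined here were the 10 genes Mbd3, Mbd2, Mta1, Mta2, Mta3, Hdac1, Hdac2, Gatad2a, Gatad2b and Rbbp4, chosen by symbol from the 24421 genes of the deposited count table. All 10 passed the filter on low values and were among the 11378 genes tested. The libraries came from mouse embryonic stem (mES) cells of the B6 strain (C57BL/6J by the study's methods) grown in 2i and LIF, in which both the controls and the treated cells carried a dTag knock-in at Brg1, the gene (Smarca4) of the main ATPase of the mSWI/SNF chromatin remodeller. The tag is a degron through which the small molecule dTAG13 sends the BRG1 protein to the proteasome. Cells received dTAG13 at 0.3, 1, 3, 10 or 100 nM for 24 h, and the control (0 nM) received none by its label and DMSO by the study's methods. Each of the 6 conditions had 2 libraries of total RNA, 12 in all, and no other genotype or time point was in the RNA-seq series. By the study's methods the knock-in cells came from picked colonies of single cells, and the number of clones behind these libraries is not stated. The values describe engineered cells only. By the library numbers in the labels, 0, 1, 10 and 100 nM belong to one run of numbers and 0.3 and 3 nM to another. Comparisons of 0.3 or 3 nM with 0 nM cross these runs, so a difference between runs cannot be told apart from dose there. The trend over all doses also spans both runs.

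NuRD is a nucleosome remodelling and deacetylase complex that pairs the histone deacetylases HDAC1 and HDAC2 with an ATP-dependent remodeller of the CHD family. MTA proteins form the scaffold that holds the deacetylases and the histone-binding RBBP proteins, and MBD2 or MBD3, which do not occur together in a complex, join this deacetylase module through GATAD2A or GATAD2B to the remodeller. In mES cells the MBD3 form tempers pluripotency gene expression and is needed for orderly lineage commitment.

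Libraries held 4663484 to 6375582 counts (median 5956670), of which the 10 genes took 9788 to 12906, or 0.179 to 0.210%. The precursor ribosomal RNA gene Rn45s took 10.5 to 19.4% of the counts and its share differed between libraries of one condition. The mES cell markers Pou5f1, Sox2, Nanog, Esrrb, Zfp42 and Dppa5a were all present, with a summed level of 1846 to 1860 RPKM (counts per kb of exon, scaled by TMM library sizes) in the controls and 1639 to 1684 under 100 nM. Within that list Dppa5a (789 to 807, then 568 to 572), Pou5f1 and Esrrb were lower under 100 nM without overlap, and Nanog (227 to 231, then 328 to 329), Sox2 and Zfp42 were higher. Of the 4 trophectoderm markers, Cdx2 (0.303 to 0.801, then 4.57 to 4.94) stood higher without overlap and Gata3 (1.16 to 1.496, then 0.508 to 0.618) lower, and the summed level of the list was 1.75 to 2.77 RPKM in the controls and 5.26 to 6.44 under 100 nM. The 5 primitive endoderm markers summed to 1.66 to 1.88 RPKM in the controls and 2.06 to 2.11 under 100 nM. Among them Pdgfra (0.0765 to 0.145, then 0.485 to 0.688) and Gata6 stood higher without overlap and Sox7 (0.648 to 0.946, then 0.152 to 0.551) lower. The 5 fibroblast or feeder markers summed to 1.13 to 1.198 and 1.53 to 2.03. No gene of these last lists passed the filter or exceeded 0.976 RPKM in any library. No marker was at 0 in all 12 libraries. The part of these marker changes in the results below was not tested, and in bulk RNA fewer cells of a type and less RNA per cell cannot be told apart. Smarca4 itself, whose transcript is not what dTAG13 acts on, measured 63.9 ± 0.503 RPKM in the controls and 71.3 ± 0.0942 under 100 nM (SD, n = 2 each). This rise was called by edgeR's quasi-likelihood test (log2 fold change 0.16, adjusted p = 0.0389). The call held in only 11 of 22 alternative settings, and not by the likelihood ratio test (0.0955) or DESeq2 (0.0525).

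NuRD subunit transcripts changed little under dTAG13. Hdac2 and Gatad2a fell at 100 nM, to 74.7% and 87.3% of their 0 nM means, and Gatad2b fell with them in the trend over all doses. Gatad2b was not called in the trend within the 8 libraries of 0, 1, 10 and 100 nM, which share a run of library numbers. No member was called higher in any comparison, and none reached the 1.5-fold change that the study required of a differentially expressed gene (DEG). Mbd3, the defining subunit of the complex in these cells, was at 96.0% of its 0 nM level at 100 nM, and its change did not pass the test.

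**Figure D1:**
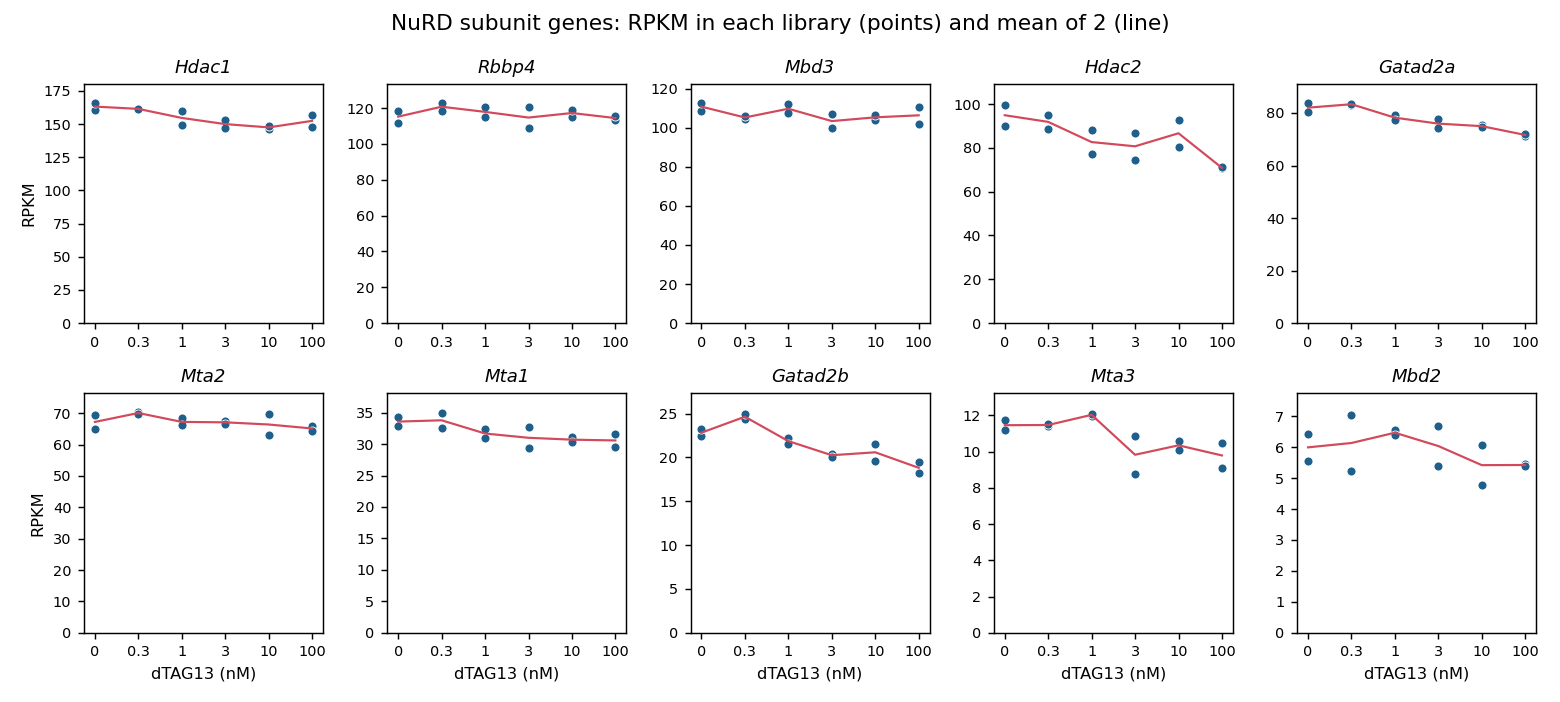
RPKM of the 10 NuRD subunit genes (vertical axis, from 0) at each dTAG13 dose (horizontal axis, in nM, evenly spaced), in order of mean level. Points are single libraries and the line joins the means of 2. Both 100 nM libraries of Hdac2 (70.6 and 71.1 RPKM) lie below both 0 nM libraries (90.1 and 99.8), whereas the Rbbp4 values of the conditions overlap.

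The order of the genes by level was almost fixed. Averaged over the 12 libraries, Hdac1 led with 154.8 RPKM, followed by Rbbp4 with 116.7 and Mbd3 with 106.9. Hdac2 (84.6) and Gatad2a (77.7) held the fourth and the fifth place and exchanged them with dose, and Mta2 (67.2), Mta1 (31.9), Gatad2b (21.5), Mta3 (10.8) and Mbd2 (5.91) followed in that order at every dose. Neighbours whose 2 libraries overlapped were Rbbp4 and Mbd3 at 0 nM, and Hdac2 and Gatad2a at 1 and 3 nM. Every other pair of neighbours was separated in its condition. Among the tested genes, 3.53% had a higher mean RPKM than Hdac1 and 63.0% a higher one than Mbd2, so the members ranged from highly expressed to below the median.

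Hdac2 encodes one of the paired catalytic deacetylases and lies on mm10 chromosome 10 from 36974544 to 37001888 on the plus strand. Its control libraries had 90.1 and 99.8 RPKM, those of 0.3 nM 94.95 and 88.8, those of 1 nM 88.2 and 77.1, those of 3 nM 87.0 and 74.5, those of 10 nM 80.6 and 92.8, and those of 100 nM 70.6 and 71.1. The 100 nM libraries were the lowest of the 12 and close to each other, while the middle doses spread widely and the 10 nM libraries overlapped the control. On the log2 scale the 100 nM change was -0.42 with a standard error of 0.0854 and a 95% interval of -0.60 to -0.25. Its p, adjusted by Benjamini and Hochberg's method over all tested genes after edgeR's quasi-likelihood test (the test used throughout), was 0.000555. Of the tested genes, 13.4% had a lower log2 fold change than Hdac2 in that comparison. The lower doses, in rising order from 0.3 to 10 nM, gave log2 fold changes of -0.05, -0.20, -0.24 and -0.13, with adjusted p of 0.960, 0.279, 0.0892 and 0.323.

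Hdac1, its close paralogue on chromosome 4 (129516104 to 129542646, minus strand), went from 160 and 166 RPKM to 157 and 148 under 100 nM. The pairs of values did not overlap, but the log2 fold change of -0.10 (standard error 0.0589) did not pass the test (adjusted p = 0.248). Its lowest condition was 10 nM, with 146 and 149 RPKM, a log2 fold change of -0.15 and an adjusted p of 0.0929. The ratio of Hdac1 to Hdac2 RPKM was 1.78 and 1.66 in the controls and, under 100 nM, 2.22 and 2.08, above all other libraries, which ran from 1.60 to 1.97. Hdac2 thus held 36.8 ± 1.09% of the summed RPKM of the pair in the controls and 31.8 ± 1.07% under 100 nM (SD, n = 2 each), a difference given without a test.

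GATAD2A and GATAD2B bridge the MBD protein and the CHD remodeller. Gatad2a, on chromosome 8 from 69907069 to 69996384 on the minus strand, had 80.3 and 83.8 RPKM in the controls, 83.1 and 83.6 under 0.3 nM, 79.3 and 77.2 under 1 nM, 77.7 and 74.2 under 3 nM, 75.5 and 74.5 under 10 nM, and 71.4 and 71.9 under 100 nM. From 1 nM on, every library was below both controls, and the means declined at each step. The fall at the top dose was -0.20 on the log2 scale (standard error 0.0534, adjusted p = 0.00834). The 4 lower doses gave 0.02, -0.07, -0.11 and -0.13, none of which passed the test.

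Gatad2b, on chromosome 3 from 90341654 to 90358120 on the plus strand, had 192 to 272 counts per library. Its RPKM was 22.4 and 23.2 in the controls, 24.3 and 25.0 under 0.3 nM, 22.2 and 21.5 under 1 nM, 20.4 and 20.1 under 3 nM, 19.6 and 21.6 under 10 nM, and 19.5 and 18.2 under 100 nM. The 0.3 nM libraries were above both controls and those of the higher doses below. Its estimate at the top dose, -0.28 on the log2 scale with a standard error of 0.104 (adjusted p = 0.0548), missed the threshold although its size exceeded that of Gatad2a. Gatad2a made up 77.0 to 79.8% of the summed RPKM of the pair in every library.

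The promoter windows of Hdac2 and Gatad2a, the members called at 100 nM, are shown beside that of Rbbp4, whose estimate lay nearest 0. They are the 250 bases before the start in RefSeq (GRCm38.p6, the assembly of mm10), read 5′ to 3′ along the gene's strand. Capitals mark CCAAT, the core of the NF-Y motif, GGGCGG, a GC box, and CACGTG, an E-box, each searched on both strands, and no marked match overlaps another.
Hdac2, chr10:36974294-36974543, plus strand: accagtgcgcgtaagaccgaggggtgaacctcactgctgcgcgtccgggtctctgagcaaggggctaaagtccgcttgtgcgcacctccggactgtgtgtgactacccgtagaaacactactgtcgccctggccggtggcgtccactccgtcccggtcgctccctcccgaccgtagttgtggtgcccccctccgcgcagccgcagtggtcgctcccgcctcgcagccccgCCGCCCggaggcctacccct
Gatad2a, chr8:69996385-69996634, minus strand: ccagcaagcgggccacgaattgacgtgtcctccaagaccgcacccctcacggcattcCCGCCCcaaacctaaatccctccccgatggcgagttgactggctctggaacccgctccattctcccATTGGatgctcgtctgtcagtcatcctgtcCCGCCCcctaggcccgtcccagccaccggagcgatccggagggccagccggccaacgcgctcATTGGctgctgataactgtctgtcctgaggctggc
Rbbp4, chr4:129335371-129335620, minus strand: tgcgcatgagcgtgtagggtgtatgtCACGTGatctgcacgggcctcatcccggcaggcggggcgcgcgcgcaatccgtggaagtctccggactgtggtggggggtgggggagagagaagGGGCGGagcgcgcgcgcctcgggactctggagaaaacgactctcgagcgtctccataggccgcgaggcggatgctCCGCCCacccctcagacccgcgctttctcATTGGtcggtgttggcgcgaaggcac
RefSeq windows were matched for 7 of the 10 members (not for Mbd2, Mta3 and Hdac1). All 7 held GGGCGG, which 32.7% of the 32851 windows in the table hold, 4 held CCAAT, which 33.8% hold, and Rbbp4 alone held CACGTG, which 6.02% hold. Hdac2 had 1 GGGCGG and no CCAAT, Gatad2a had 2 of each, and Rbbp4 had 2 GGGCGG and 1 CCAAT. The window matched for Gatad2b starts 47568 bases from the start of the counted gene model, so it may not be the promoter of the counted exons. A match is a description of the letters, not of a bound factor. The matched members' windows were 56 to 80.8% G or C. The windows of the table were not matched to them for base content or expression, so the shares are no test of enrichment.

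Among the MBD genes, Mbd3 (chromosome 10, 80392539 to 80399531, minus strand) had 109 and 113 RPKM in the controls and 111 and 102 under 100 nM. The 100 nM libraries overlapped the controls and the log2 fold change of -0.06 did not pass the test (adjusted p = 0.582), with a 95% interval from -0.20 to 0.08. The 1 nM libraries also overlapped the controls. Those of 0.3 nM (104 and 106), 3 nM (99.7 and 107) and 10 nM (104 and 107) lay below both controls, but Mbd3 was not called at these doses. Its lowest library was at 3 nM, with 99.7 RPKM. Mbd2, which binds methylated CpG sites and lies on chromosome 18, had 5.57 and 6.42 RPKM in the controls and 5.46 and 5.39 under 100 nM. With 51 to 74 counts per library it was the member measured least precisely, and its log2 fold change of -0.15 had an interval from -0.58 to 0.29 (adjusted p = 0.678). Mbd3 held 93.7 to 95.7% of the summed RPKM of the pair in all 12 libraries.

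The MTA scaffold genes kept the order Mta2, Mta1, Mta3 at every dose. Mta2 (chromosome 19, 8941920 to 8952300, plus strand) had 64.9 and 69.6 RPKM in the controls and 66.1 and 64.2 under 100 nM, which overlapped. Its 0.3 nM libraries (70.3 and 69.8) lay above both controls, without a call. Its share of the summed RPKM of the 3 genes was 59.6 to 62.7%. Mta1 (chromosome 12, 113098278 to 113137206, plus strand) went from 32.9 and 34.3 RPKM to 29.5 and 31.6 under 100 nM. Mta3 (chromosome 17, 83706163 to 83814905, plus strand) had 11.2 and 11.8 RPKM in the controls, 11.99 and 12.1 under 1 nM, 10.9 and 8.78 under 3 nM, and 10.5 and 9.08 under 100 nM. Both Mta1 and Mta3 were lower at 100 nM without overlap, yet neither passed the test. Their log2 fold changes were -0.13 (adjusted p = 0.261) and -0.23 (adjusted p = 0.191), against -0.05 for Mta2 (adjusted p = 0.672).

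Rbbp4, a histone chaperone that NuRD shares with the PRC2, SIN3 and CAF-1 complexes, lies on chromosome 4 from 129307100 to 129335370 on the minus strand. It had 112 and 119 RPKM in the controls, 123 and 118 under 0.3 nM, 121 and 115 under 1 nM, 120 and 109 under 3 nM, 115 and 119 under 10 nM, and 113 and 116 under 100 nM. All conditions overlapped the control, and the 100 nM log2 fold change was -0.01 with a 95% interval from -0.13 to 0.11. Exons of Sync lie over those of Rbbp4 on the opposite strand, and since the counting did not use strand, reads of the 2 genes in that overlap cannot be told apart.

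**Figure D2:**
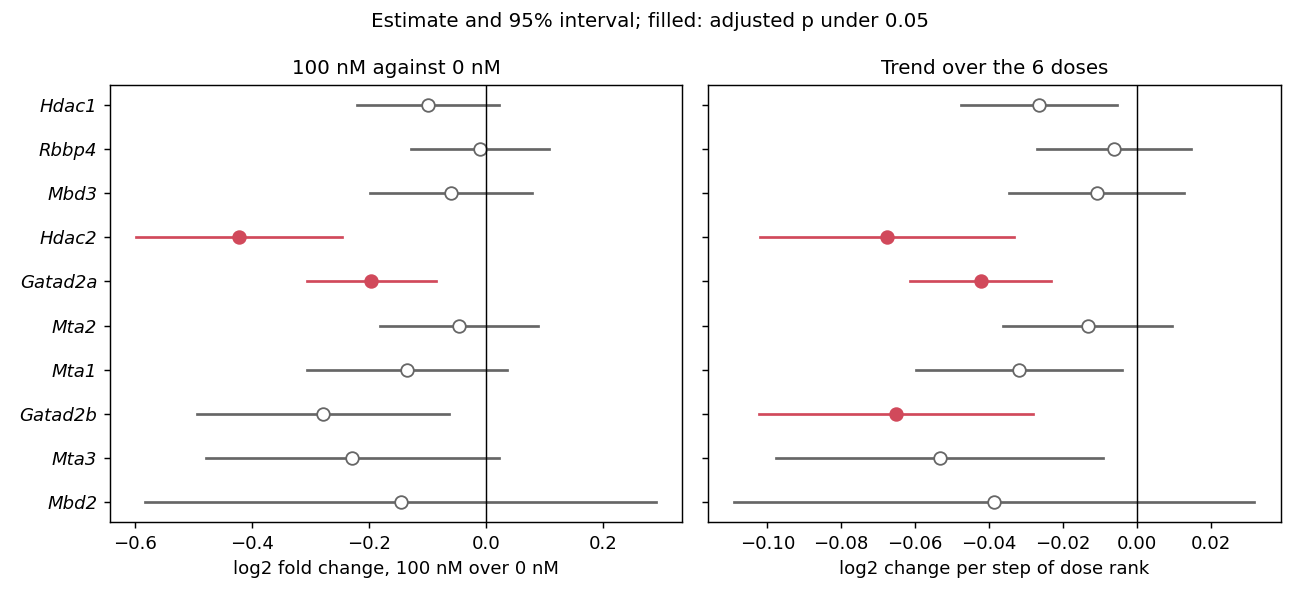
Log2 fold change at 100 nM against 0 nM (left) and log2 change per step of dose rank (right) for each NuRD subunit gene, with 95% intervals from edgeR's quasi-likelihood fit of 12 libraries and filled points for adjusted p under 0.05. All estimates lie below 0, although the Rbbp4 and Mbd3 slopes cross it without normalization factors, and the 100 nM estimate of Rbbp4 crosses it without them and with upper quartile factors. Hdac2 and Gatad2a are called on the left and Gatad2b joins them on the right.

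Counted over the 5 doses, no member was called higher or lower at 0.3, 1, 3 or 10 nM. Of all tested genes, 0% were called higher and 0.0703% lower under 0.3 nM, 0.773% and 1.52% under 1 nM, 4.15% and 5.25% under 3 nM, and 7.87% and 10.1% under 10 nM. With an unadjusted p under 0.05, 0, 1, 2 and 2 members were lower and none higher at these doses. At that threshold 4.38%, 7.47%, 11.6% and 15.2% of all tested genes were lower, and 3.17%, 6.03%, 10.1% and 13.7% higher. The likelihood ratio test of edgeR and DESeq2's Wald test also called 0 members at each dose. At 100 nM, 2 of 10 members were called lower and 0 higher, beside 13.3% of the tested genes lower and 10.1% higher. None of them was a DEG, while 6.83% of the tested genes were DEGs lower and 4.37% DEGs higher. The median log2 fold change of the members was -0.14 at 100 nM, with a range from -0.42 to -0.01, and that of all tested genes was 0.

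Both 100 nM libraries lay below both 0 nM libraries for 7 members and overlapped them for Mbd3, Mta2 and Rbbp4. Among all tested genes, 31.2% were separated downward and 30.5% upward in this way. The 10 nM libraries separated 6 members downward and 0 upward and those of 3 nM 7 and 0, those of 1 nM separated 5 downward and 1 (Mta3) upward, and those of 0.3 nM separated Mbd3 downward and Mta2 and Gatad2b upward. Over all tested genes, 19.7% were separated downward and 18.5% upward under 0.3 nM, 22.6% and 22.2% under 1 nM, 25.4% and 24.3% under 3 nM, and 27.4% and 27.4% under 10 nM. The summed RPKM of the 10 genes was 688 and 727 in the controls, 713 and 705 under 0.3 nM, 696 and 669 under 1 nM, 680 and 638 under 3 nM, 659 and 671 under 10 nM, and 654 and 637 under 100 nM. Both 100 nM libraries lay below both controls, whereas the 0.3 and 1 nM libraries overlapped them.

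A slope over the rank of the 6 doses was fitted to use all 12 libraries at once. Hdac2 fell by 0.07 per step on the log2 scale (adjusted p = 0.00320), Gatad2a fell by 0.04 (adjusted p = 0.00106) and Gatad2b fell by 0.07 (adjusted p = 0.00744). These 3 of 10 members were called lower and 0 higher, beside 15.7% of the tested genes lower and 13.6% higher. Hdac1, Mta1 and Mta3 had unadjusted p under 0.05 but adjusted p of 0.0552, 0.0780 and 0.0636. With the called genes, 6 of 10 members were lower at the unadjusted threshold, beside 20.3% of the tested genes lower and 19.3% higher. The trend uses the same 12 libraries as the dose comparisons and is no separate evidence. Within the 8 libraries of 0, 1, 10 and 100 nM, which share a run of library numbers, Hdac2 and Gatad2a were called and Gatad2b was not (adjusted p = 0.0662).

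The comparison of 3 with 0.3 nM stays within the other run of library numbers. There 0 of 10 members were called in either direction, beside 2.88% of the tested genes lower and 2.43% higher. All 10 estimates were below 0, with a median of -0.11. Hdac2 (-0.19), Gatad2a (-0.13) and Gatad2b (-0.28) had an unadjusted p under 0.05 but adjusted p of 0.233, 0.161 and 0.125. At the unadjusted threshold 9.89% of the tested genes were lower and 8.80% higher. The likelihood ratio test and DESeq2 also called 0 members, with 1 at an unadjusted p under 0.05 in each.

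These counts depended on the scaling. With TMM factors taken over every gene of the table instead of the tested genes, the median of all tested genes moved to -0.08 at 100 nM, the called genes split into 802 higher and 2174 lower in place of 1151 and 1511, and 4 members were called lower, Hdac1 and Gatad2b joining Hdac2 and Gatad2a. Leaving out the second 0 nM library or the first 100 nM library ended the call of Gatad2a at 100 nM (adjusted p = 0.102 and 0.0649), and leaving out either 10 nM library brought Gatad2b under the threshold (0.0479 and 0.0495).

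**Figure D3:**
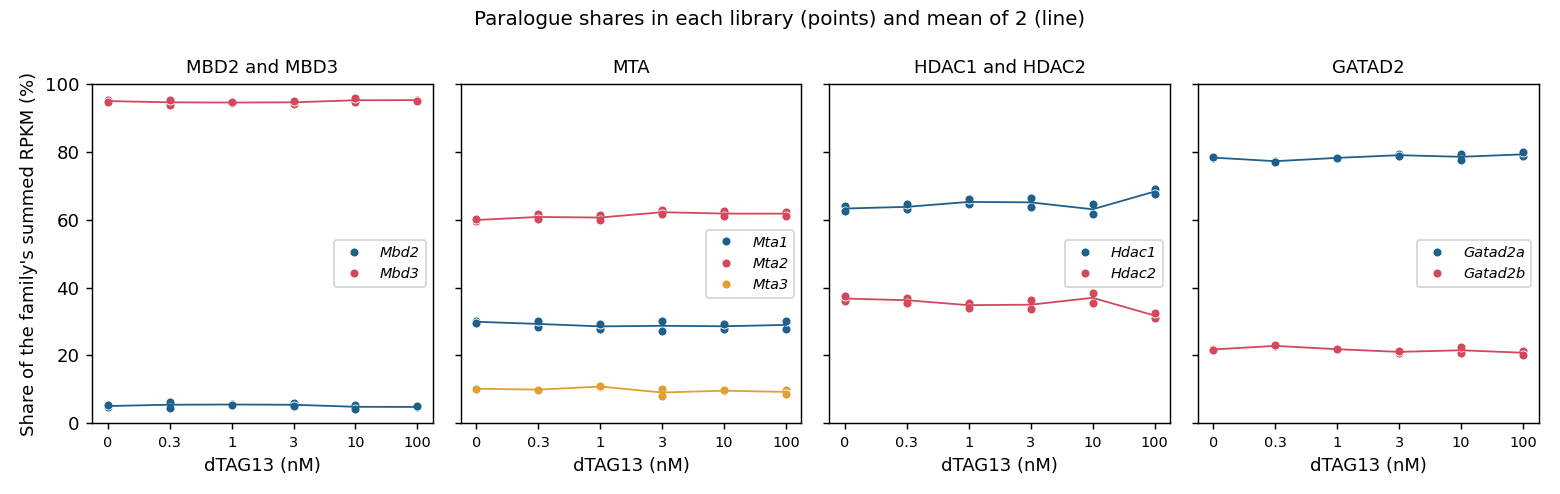
Share of each paralogue in the summed RPKM of its family (vertical axis, percent) at each dTAG13 dose (horizontal axis, nM, evenly spaced), with points for libraries and lines for means of 2. Mbd3, Mta2, Hdac1 and Gatad2a hold the larger share at every dose, and the Hdac2 share is lowest at 100 nM (31.8%).

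Across the 12 libraries, Pearson's r of log2(RPKM + 0.1) between members was positive for 43 of 45 pairs, from -0.07 to 0.91 with a median of 0.49. Gatad2a and Gatad2b were the most alike (r = 0.91), followed by Hdac2 with Gatad2a (r = 0.83) and Hdac2 with Gatad2b (r = 0.80). Mbd3 and Mta3 reached 0.75, while Mta1 and Rbbp4 were at -0.07. The libraries share their scaling and doses, so these values are descriptions. For Hdac2, the member with the largest change at 100 nM, the most similar of all tested genes were Api5, an inhibitor of apoptosis (r = 0.96), Ndufb4, a subunit of respiratory complex I (r = 0.94), and Rpl29, a ribosomal protein gene (r = 0.93). At 100 nM their log2 fold changes were -0.22, -0.57 and -0.25. These 3 genes were picked for likeness to Hdac2 over the same 12 libraries, those of 100 nM included. Their falls at 100 nM follow from that choice and are no separate result.

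The other genes of the pathway were taken from 4 lists. Of the 18 NuRD ATPases and associated proteins, 17 were tested (Chd5 was below the filter), of which 5 were called lower at 100 nM and 1 higher, with a median log2 fold change of -0.06, where 13.3% of all tested genes were called lower and 10.1% higher. The number called lower ran from 2 to 6 over the alternatives and was 2 without the second 100 nM library or without normalization factors. Chd4, the remodelling ATPase of NuRD in these cells and named for that role, went from 113 ± 5.34 to 98.6 ± 0.254 RPKM (SD, n = 2 each), or -0.20 on the log2 scale (adjusted p = 0.0119). It was also called at 10 nM (-0.19, adjusted p = 0.0230), but not at 100 nM when normalization factors were left out (adjusted p = 0.157). Without the first 0 nM library or either 100 nM library its 100 nM call was lost (adjusted p = 0.150, 0.0733 and 0.0791). Rbbp7, the paralogue of Rbbp4, had a log2 fold change of 0.03 (adjusted p = 0.746), which was -0.05 with TMM factors over every gene.

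Pwwp2b, a chromatin reader that binds the NuRD deacetylase module, had 35 and 47 counts in the controls and 7 and 6 under 100 nM. It fell from 2.59 ± 0.439 to 0.405 ± 0.0477 RPKM (log2 fold change -2.65, adjusted p = 1.10e-05), the largest fall of the list and its only DEG. Sall1, a zinc-finger factor that recruits NuRD, fell by 0.44 on the log2 scale (adjusted p = 1.65e-05), and the demethylase gene Kdm1a fell by 0.29 (adjusted p = 0.00287). The zinc-finger gene Zfp296 rose by 0.41 (adjusted p = 0.00312). Pwwp2b, Sall1 and Zfp296 were called in all 22 alternatives, and Kdm1a lost its call without the second 100 nM library (adjusted p = 0.0887) and without normalization factors.

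All 25 genes of other HDAC1 and HDAC2 complexes were tested. At 100 nM, 3 were called higher, 2 of them DEGs, and 5 lower, with a median of -0.07. Over all tested genes, 10.1% were called higher, 4.37% were DEGs higher, and 13.3% were called lower. Phf21a, a histone reader of the CoREST complex, went from 2.97 ± 0.267 to 5.32 ± 0.373 RPKM (log2 fold change 0.84, adjusted p = 2.37e-05), and Rcor2, a CoREST scaffold, from 38.1 ± 0.603 to 61.8 ± 5.24 RPKM (0.70, adjusted p = 5.58e-07). Sap30 and Sap130, both of the SIN3 complex, moved in opposite directions, by 0.46 (adjusted p = 0.000379) and -0.36 (adjusted p = 0.00381). Sap130 lost its call without the first 100 nM library (adjusted p = 0.0592). The number called lower ran from 1 to 8 over the alternatives. It was 8 with TMM factors over every gene, 2 without the first 0 nM library, and 1 without the second, without either 100 nM library or by DESeq2, whereas the number called higher was 3 in each.

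Among the 9 other deacetylase genes, from Hdac3 to Hdac11, Hdac7 and Hdac9 were below the filter. Of the 7 tested, 2 were called lower and 1 higher at 100 nM, with a median of 0.05. The shares over all tested genes were 13.3% lower and 10.1% higher. Hdac10, a polyamine deacetylase, fell by 1.21 on the log2 scale (adjusted p = 0.0131), from 1.97 ± 0.187 to 0.852 ± 0.180 RPKM. Hdac6, the cytoplasmic tubulin deacetylase, rose by 0.45 (adjusted p = 0.00463) and Hdac4 fell by 0.32 (adjusted p = 0.0419). DESeq2's Wald test called neither Hdac10 (adjusted p = 0.0558) nor Hdac4 (0.191). By the quasi-likelihood test Hdac4 was also not called with upper quartile factors (0.0557) or without normalization factors (0.146). The calls of Hdac10 and Hdac6 were each lost without the second 0 nM library (adjusted p = 0.0911 and 0.129), and without the second 100 nM library for Hdac10 (0.122) or the first for Hdac6 (0.0514). Hdac4 held in 15 of 22 alternatives and was lost without the second 0 nM library (0.292), the first 1 nM library (0.0508) or either 100 nM library (0.0775 and 0.228).

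Of the 6 other methyl-CpG binding genes, all tested, 1 was called lower and 1 higher at 100 nM, with a median of 0.13. The shares over all tested genes were again 13.3% and 10.1%. Zbtb33, the gene of Kaiso, fell by 0.66 on the log2 scale (adjusted p = 0.0153), and Mbd4, a DNA glycosylase gene, rose by 0.33 (adjusted p = 0.0406). DESeq2's Wald test called neither (adjusted p = 0.0808 and 0.163). By the quasi-likelihood test Mbd4 was also not called with no filter (0.236) or with TMM factors over every gene (0.122). Zbtb33 lost its call without the first 0 nM library (adjusted p = 0.136) or the first 100 nM library (0.128). Mbd4 lost it without either 0 nM library (0.0704 and 0.238) or the first 100 nM library (0.263). No difference between these lists and the NuRD subunit genes was tested.

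**Figure D4:**
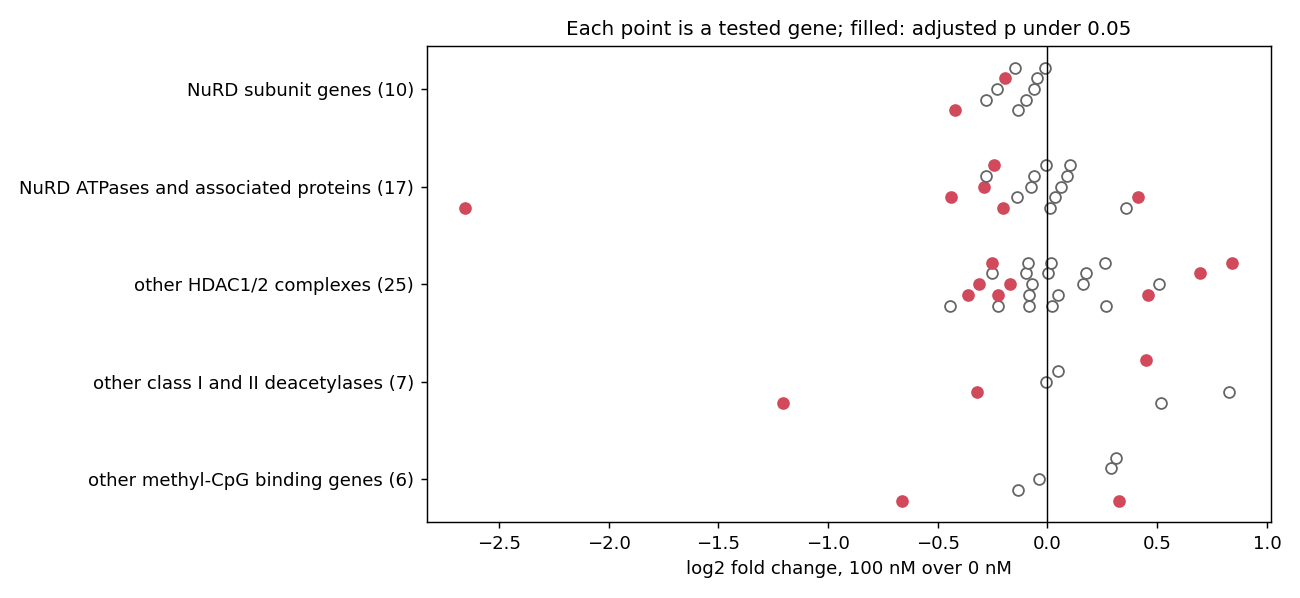
Log2 fold change at 100 nM against 0 nM (horizontal axis) of every tested gene among the NuRD subunit genes and the 4 lists, with the number of genes in parentheses, vertical offsets only to part the points, and filled points for adjusted p under 0.05. The NuRD subunit genes lie between -0.42 and -0.01, while Pwwp2b at -2.65 is the point farthest left. The row labelled class I and II deacetylases holds the tested genes from Hdac3 to Hdac11. The row labelled methyl-CpG binding genes holds genes listed for a methyl-CpG binding domain or for methyl-CpG binding.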

How the data were processed

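Read-pair counts per gene were deposited by the authors without normalization for 12 libraries. Per the labels and the study's methods, reads were trimmed with Trim Galore, aligned to mm10 with HISAT2 and counted on exons with featureCounts 2.0.1 without regard to strand, although the kit keeps strand. Pairs aligned to several places were left out, so reads shared with near-identical gene copies are missing. Conditions came from the sample labels, and the study describes the 2 libraries of a condition as independent experiments, which the labels do not detail.

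RPKM was computed with the deposited gene lengths and edgeR's TMM factors (0.947 to 1.06). The filter kept genes averaging 1 RPKM or more, which were tested with edgeR 4.0.16 in R 4.3.3 (quasi-likelihood test, 6 conditions in one fit, Benjamini-Hochberg adjustment over 11378 genes, called at an adjusted p under 0.05). The likelihood ratio test that the study names and DESeq2 1.42.0 were alternatives, with other scalings, no filter, a replicate block, pairwise fits and each library left out. The steps were tested on simulated counts. At 100 nM against 0 nM they recovered 10.5% of genes changed 1.25-fold, 63.3% at 1.5-fold and 99.5% at 3-fold. Most changes of 1.25-fold were thus missed in the simulation. That run changed 200 of 11284 genes, of many expression levels, whereas 2662 genes were called in the data. The adjusted threshold therefore differed, and Gatad2a was called at a fold of 0.873. The rates are no measure of recovery for the members, whose 95% intervals give their own precision. A gene not called may still have changed by a small amount. No batch term was fitted. Intervals of single values cover counting error and spread as the fit estimates them. The named genes were all members, up to 4 called genes per list with the largest change at 100 nM, and the 3 genes most like the member with the largest change. Chd4, Rbbp7 and Smarca4 were named for their roles. Members and lists were chosen with earlier results of these data known. Mideas was read as Elmsan1, its older symbol.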

Additional observations from a re-analysis of the deposited data

How the results depend on the processing

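Hdac2 stayed called lower at 100 nM in all 22 alternatives (log2 fold change -0.50 to -0.35), Gatad2a in 19 and Gatad2b in 4. In the trend they were called in 22, 21 and 20. The number of members called lower at 100 nM was 2, and it was 1 without normalization factors, 4 with no filter or with TMM factors over every gene (a choice made after seeing the data), 0 as DEGs with a fold over 1.5, and 1 to 3 when single libraries were left out. In the trend it was 3, and it was 1 without normalization factors and 6 with no filter or TMM over every gene. At 3 nM it rose from 0 to 1 with no filter, with TMM over every gene, and in the range of 0 to 1 when single libraries were left out, at 10 nM from 0 to 2 with no filter or TMM over every gene, and for 3 against 0.3 nM from 0 to 1 with TMM over every gene. Without the filter, TMM factors are taken over every gene by construction. Gatad2a was lost at 100 nM without normalization factors (adjusted p = 0.217). Most of the other 305 counts were 0 in both settings, which says little about how firm the results are. The rest stayed within 1.5 times the reported one. Among them, 3 members were called at 100 nM without either 10 nM library, and in the trend 4 without the second 1 nM or the first 100 nM library and 2 within the 8 libraries of 0, 1, 10 and 100 nM. Across the scalings, the share of lower calls over all genes at 100 nM ran from 47.9% (none) to 73.1% (TMM over every gene), beside 56.8%. In the same order it ran from 45.4% to 68.7% at 3 nM (55.8%), 44.7% to 66.4% at 10 nM (56.1%), 43.1% to 71.7% for 3 against 0.3 nM (54.3%) and 41.5% to 70.7% in the trend (53.6%), and at 1 nM it was 79.3% without normalization factors (66.3%).

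Estimates near 0 changed sign. At 100 nM, Rbbp4 was 0.006 with upper quartile factors, 0.031 without normalization factors, and from -0.053 to 0.03 without single libraries (0.03 without the second 0 nM library, 0.007 without the first 100 nM library), Mta2 ran from -0.096 to 0.003 (0.003 without the second 0 nM library), and Rbbp7 was -0.047 with no filter or TMM over every gene. The slopes of Mbd3 and Rbbp4 were 0.001 and 0.005 without normalization factors. The summed RPKM of the members with Rn45s and Rpph1 removed was 867.6 at 0 nM and 793.2 at 100 nM, and 617.7 at 100 nM with TMM over every gene. Hdac2 RPKM was 116.4 at 0 nM and 87.1 at 100 nM with those genes removed, 71.25 at 100 nM without normalization factors and 67.83 with TMM over every gene, and 70.6 to 71.3 when single libraries were left out.

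The replicate numbers did not pair the libraries (15 correlations of deviations, from -0.09 to 0.09). A replicate block left 2 members called at 100 nM, 3 in the trend and 0 at the other doses, with 2605 genes called at 100 nM in place of 2662. With 51 to 74 counts per library, depth limited Mbd2 most. Replicates differed beyond sampling noise in every condition, so none was counted once.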
